A study of Mus musculus with 12 samples.

Results

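The genes described here were 38 listed genes of protein folding, translocation, export and degradation in the endoplasmic reticulum (ER), with the sensors of the unfolded protein response. They were listed by name, but with earlier results of these data known, so counts of calls over the list are descriptions. All 38 were among the 35214 genes with a transcript in the deposited tables. By role they comprised 10 Hsp70 and Hsp90 chaperones and partners, 3 lectin chaperones, 6 disulfide and proline isomerases, 6 translocation, glycosylation and export genes, 8 genes of ER-associated degradation (ERAD) and 5 sensors and their partners. Enough reads for testing were found for 37 of them, among 12542 genes tested in all, while Derl3 had 19 reads over all libraries together and was not tested.

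The cells were cultures of Ocy454, a mouse cell line used as a model of osteocytes, the cells embedded in bone. All 4 groups were grown to confluence, moved to 37 °C to differentiate, and on differentiation day 5 received 1 h of pretreatment followed by 48 h of treatment before lysis on day 7. The DMSO group received vehicle and control medium, and the DMSO+FGF2 group received vehicle and 2 ng/mL of fibroblast growth factor 2 (FGF2). The BGJ398 group received 200 nM of BGJ398, a pan-FGF receptor kinase inhibitor, and the BGJ398+FGF2 group received the inhibitor and FGF2 together. Each group had 3 libraries of polyadenylated RNA from this 1 line, and the labels do not say whether they came from independent experiments, so the spread behind every p-value is that of these libraries and may be technical.

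Proteins that enter the secretory pathway are threaded into the ER lumen through the Sec61 channel, glycosylated, and folded by chaperones and disulfide isomerases, and those that fail are extracted and degraded by ERAD. When unfolded proteins accumulate, the membrane sensors Ern1 (IRE1), Atf6 and Eif2ak3 (PERK) start the unfolded protein response. Active Atf6 and the transcription factor made from Ern1-spliced Xbp1 mRNA bind ER stress elements (ERSE) in the promoters of chaperone and ERAD genes. Bone-forming cells carry a large secretory load of collagen and other matrix proteins.

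Promoters were searched for ERSE sequences, since Atf6 and Xbp1 act through them. The search used RefSeq windows (GRCm38.p6) from 250 bases before to 50 bases after each annotated start, on both strands, and 32 of the 38 genes had a window. An ERSE, here CCAAT, any 9 bases and CCACG (19 letters in all), was present in 9 of the 32 genes and in 37 of 27025 mouse genes with a window (0.137%). The shorter ERSE-II, ATTGG, any 1 base and CCACG, was present in 2 of the 32 genes, Herpud1 and Dnajb11, against 0.0444% of genes. Both patterns end in the same CCACG, but no match of one overlapped a match of the other in these genes. A match is a description of the letters and not of binding. ERSE are elements of chaperone and ERAD promoters, and such genes make up much of the list. The higher share of these motifs in the list is thus no separate finding.

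Hspa5 is shown first, with the 250 bases before its start (chr2:34771840-34772089, + strand), since it encodes BiP, the most studied target of the response, and capitals mark the ERSE.
Hspa5: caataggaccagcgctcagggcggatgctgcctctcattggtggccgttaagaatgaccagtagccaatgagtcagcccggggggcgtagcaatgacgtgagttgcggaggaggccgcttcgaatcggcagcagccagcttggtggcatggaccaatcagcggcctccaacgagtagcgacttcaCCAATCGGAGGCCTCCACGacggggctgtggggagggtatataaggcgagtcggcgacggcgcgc
The remaining stretches show the ERSE of genes whose values are given below, with 20 bases on each side, read 5′ to 3′ on the strand of the gene. An ERSE on the opposite strand reads CGTGG, any 9 bases and ATTGG.
Hsp90b1, chr10:86705618-86705676, - strand: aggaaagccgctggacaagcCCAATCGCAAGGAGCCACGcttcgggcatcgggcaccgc
Hsp90b1, chr10:86705513-86705571, - strand: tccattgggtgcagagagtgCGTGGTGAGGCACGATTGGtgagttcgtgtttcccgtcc
Creld2, chr15:88819500-88819558, + strand: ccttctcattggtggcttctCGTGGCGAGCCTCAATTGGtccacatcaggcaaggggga
Dnajc3, chr14:118937807-118937865, + strand: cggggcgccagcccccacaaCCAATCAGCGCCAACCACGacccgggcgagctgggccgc
Calr, chr8:84847055-84847113, - strand: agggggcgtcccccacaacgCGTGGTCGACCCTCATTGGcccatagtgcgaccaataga
Syvn1, chr19:6046512-6046570, + strand: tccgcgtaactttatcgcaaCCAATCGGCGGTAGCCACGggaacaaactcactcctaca
Canx, chr11:50325780-50325838, - strand: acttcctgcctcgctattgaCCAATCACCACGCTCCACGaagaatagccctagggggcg
Pdia6, chr12:17266471-17266529, + strand: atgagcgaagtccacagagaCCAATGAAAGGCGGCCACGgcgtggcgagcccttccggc
In Herpud1 the capitals mark the ERSE-II.
Herpud1, chr8:94386357-94386407, + strand: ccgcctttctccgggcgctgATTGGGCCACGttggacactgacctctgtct

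Depth ranged from 18951710 to 27716975 reads per library. The libraries did not all sit equally close to their groups: BGJ398+FGF2 2, DMSO+FGF2 2 and BGJ398 1 lay highest, at 27.98, 14.59 and 13.28, on the first axis of within-group deviations (22.7% of that variance), against -16.06 to 2.16 for the other 9. BGJ398+FGF2 2 also had the fewest reads and the highest share of mitochondrially encoded reads, 2.11%. Where leaving out these 3 libraries together gained or ended a call between 2 groups, the value without them is given. For the interaction the genes are named. Among defining osteocyte markers, no library held a read of Sost or Mepe, and all 12 together held 26 reads of Dmp1 and 6 of Fgf23. Of the 6 osteocyte markers only Pdpn had a mean above 1 CPM (reads of a gene scaled to a common library size by TMM), and their summed level was 25.8 to 29.5 in DMSO and 38.6 to 40.1 CPM in DMSO+FGF2. All 6 osteoblast markers were lower in every DMSO+FGF2 library than in any DMSO library, with a summed level of 5604 to 6838 CPM against 9267 to 9991 CPM, nearly all of it Col1a1. Of all tested genes, 18.4% separated downward in this way. Bglap and Ibsp had few reads, 167 and 279 over all libraries. The macrophage list summed to 2.85 to 3.27 in DMSO and 5.71 to 7.19 CPM in DMSO+FGF2. The chondrocyte list summed to 14.2 to 14.4 CPM and 24.0 to 25.8 CPM. Each of these rises was that of 1 gene, Cd68 and Sox9. The other markers of these 2 lists with a read had lower means in DMSO+FGF2 than in DMSO. Among them were Lyz2 (0.915 to 0.396 CPM), Csf1r (0.561 to 0.316 CPM) and Col2a1 (0.477 to 0.256 CPM). Endothelial, adipocyte and muscle lists stayed under 5 CPM, and Adgre1, Adipoq, Lpl, Myod1 and Myog had no read. The part of these marker differences in the results below was not tested, and fewer cells of a type cannot be told apart from less RNA per cell.

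Per transcript length, the list was led in DMSO by P4hb at 949.9 ± 10.2 TPM (reads scaled for transcript length and library size; SD, n = 3), Calr at 875 ± 26.7 and Ppib at 747 ± 25.8. Hsp90b1 at 496 ± 9.39 and Hspa5 at 485 ± 21.5 followed and did not differ beyond their spread. Sensors were lower, from 18.8 ± 1.13 TPM for Eif2ak3 to 47.5 ± 5.5 for Xbp1, apart from the protease gene Mbtps1 at 216 ± 0.718. Among chaperones the lowest was Dnajb9 at 13.6 ± 0.988 TPM. Summed over the 38 genes, the level was 7759, 7640 and 7709 TPM in the 3 DMSO libraries, 9794, 9924 and 9264 TPM in DMSO+FGF2, 7709, 7915 and 7796 TPM in BGJ398 and 7860, 7767 and 7704 TPM in BGJ398+FGF2. Every DMSO+FGF2 library was above every other library in this sum. The Hsp70 and Hsp90 group went from 1715 ± 43.3 TPM in DMSO to 2887 ± 206 in DMSO+FGF2, while the translocation, glycosylation and export group went from 1321 ± 22.3 to 1172 ± 35.7.

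**Figure D1:**
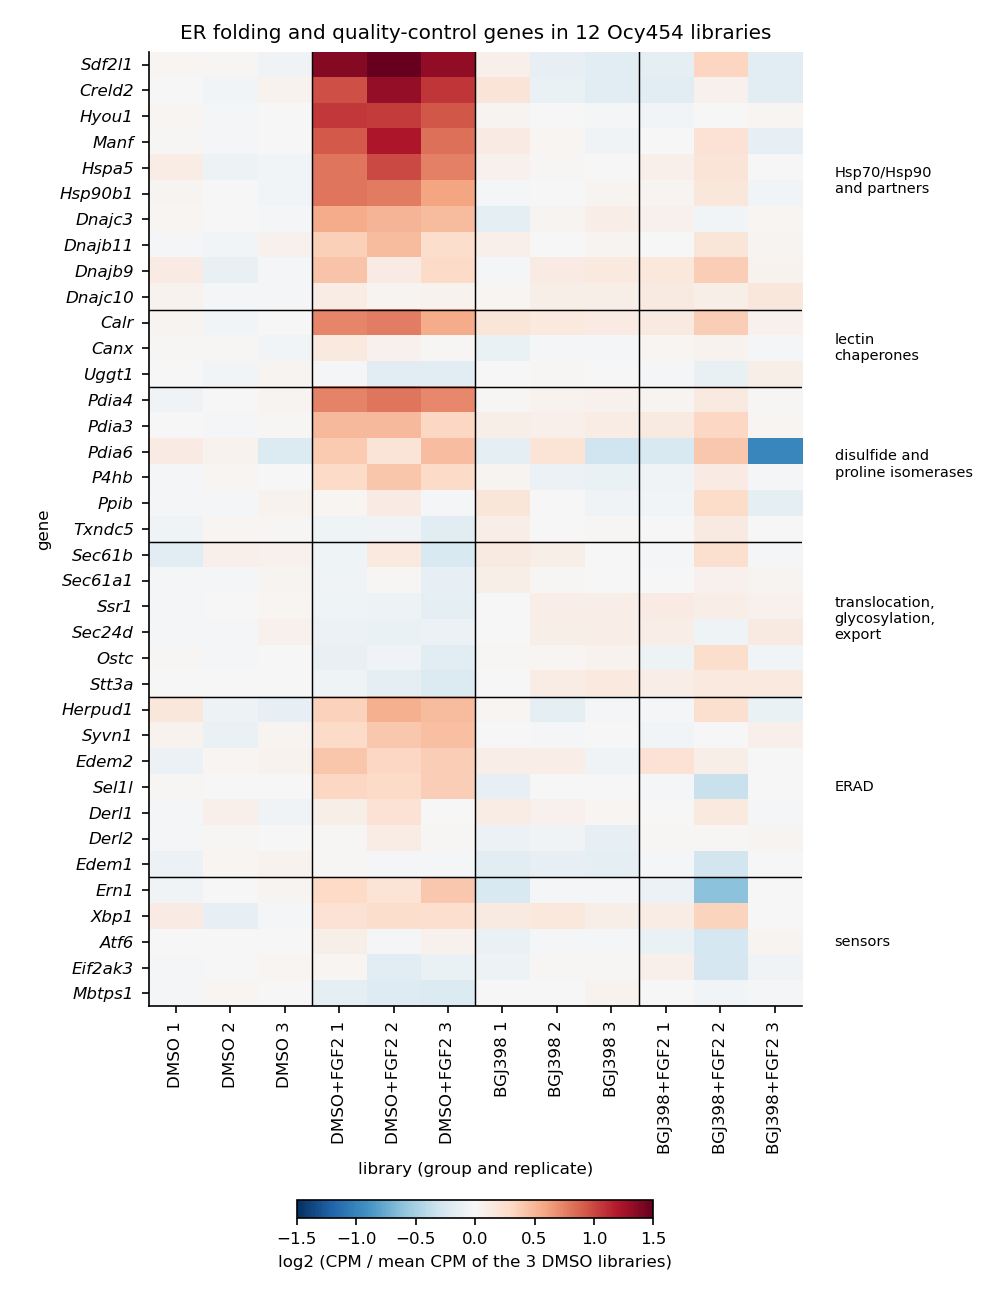
Each row is 1 of the 37 tested genes and each column 1 library, coloured by log2 of its CPM over the mean CPM of the 3 DMSO libraries. The 3 DMSO+FGF2 columns are red for most of the upper chaperone rows, and the BGJ398 and BGJ398+FGF2 columns are pale apart from single libraries such as BGJ398+FGF2 3 for Pdia6 and BGJ398+FGF2 2 for Ern1.

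The first comparison asked what FGF2 changed when its receptors were not inhibited. FGF2 raised 16 of the 37 genes and lowered 1, Mbtps1, at an adjusted p under 0.05, and 20 did not pass. Over all 12542 genes 13.4% were called, 7.57% higher and 5.82% lower. The median log2 fold change of the 37 was 0.29, against 0.00 over all genes. Libraries of the 2 groups did not overlap for 22 of the 37 in the higher direction and for 6 in the lower, against 19.2% and 18.4% of all genes. Of the called genes, 8 were Hsp70 and Hsp90 chaperones and partners, 1 was a lectin chaperone, 3 were isomerases and 4 were ERAD genes.

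Among chaperones, 8 of 10 rose, where 7.57% of all genes were called higher, with a median log2 fold change of 0.79 over the group. Hspa5 (BiP), the main Hsp70 of the ER lumen, measured 778, 683 and 697 CPM in the 3 DMSO libraries and 1255, 1428 and 1216 CPM with FGF2. In BGJ398 it measured 750.0, 729 and 714 CPM and in BGJ398+FGF2 758, 823 and 716 CPM. All 3 DMSO+FGF2 libraries were above the other 9, and the log2 fold change for FGF2 in DMSO was 0.85 ± 0.07 (adjusted p = 6.34e-06). Hsp90b1 (Grp94), the Hsp90 of the ER, measured 786, 768 and 743 in DMSO and 1333, 1313 and 1156 CPM in DMSO+FGF2. Under the inhibitor it measured 753, 763 and 786 CPM without FGF2 and 789, 859 and 742 CPM with it. Again the DMSO+FGF2 libraries stood alone, with a log2 fold change of 0.73 ± 0.07 (adjusted p = 9.51e-06).

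Hyou1 (Grp170), which exchanges nucleotide on BiP, went from 209.6, 199.9 and 204 CPM in DMSO to 426, 422 and 391 CPM in DMSO+FGF2. Its BGJ398 libraries held 210.3, 205 and 201 CPM and its BGJ398+FGF2 libraries 199, 206 and 209 CPM. Here too DMSO+FGF2 stood alone, 2.02-fold higher, with a log2 fold change of 1.01 ± 0.05 (adjusted p = 3.1e-08). Sdf2l1, a partner of the BiP co-chaperone Dnajb11, had the largest change of the 37 genes, from 28, 27.8 and 26.5 CPM to 71.1, 86.5 and 69.2 CPM. With BGJ398 it was at 29, 25.2 and 24.4 CPM, and with BGJ398 and FGF2 at 24.8, 34.3 and 24.6 CPM. The FGF2 groups did not overlap in DMSO, at 2.76-fold and a log2 fold change of 1.46 ± 0.12 (adjusted p = 4.65e-06), and DMSO+FGF2 2 and BGJ398+FGF2 2 were each the highest of their group.

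Creld2, an ER-resident protein with EGF-like repeats, rose from 72, 69.9 and 74.6 CPM to 141, 180.2 and 151 CPM. Inhibitor-treated libraries read 82.2, 67.3 and 64.9 CPM without FGF2 and 64.7, 75.5 and 64.9 CPM with it. The lowest DMSO+FGF2 library was above the highest of the other 9, and the log2 fold change was 1.13 ± 0.10 (adjusted p = 9.5e-06). Manf, an ER protein that binds BiP and can be secreted, rose from 86.6, 84.7 and 85.5 CPM to 162, 199 and 151 CPM. The inhibitor groups were at 93.1, 87.5 and 82.7 CPM and 85.6, 99.2 and 78.6 CPM. DMSO+FGF2 2 and BGJ398+FGF2 2 were again the highest of their groups, and the log2 fold change was 1.00 ± 0.10 (adjusted p = 1.94e-05).

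The J-domain co-chaperones, which hand substrates to BiP, split. Dnajc3 (p58IPK) went from 106, 104 and 102 CPM to 153, 148 and 145 CPM, and read 93.8, 107 and 111 in BGJ398 and 108, 100.7 and 107 CPM in BGJ398+FGF2. Dnajb11 (ERdj3) went from 92.8, 92.2 and 99.4 CPM to 122, 132 and 114 CPM, and read 99.8, 95.3 and 97.6 CPM and 94.1, 107 and 97.8 CPM under the inhibitor. Both had DMSO+FGF2 libraries above all others, with log2 fold changes of 0.51 ± 0.06 (adjusted p = 8.77e-05) and 0.37 ± 0.06 (adjusted p = 0.00178). Dnajb9 (ERdj4) measured 15.8, 13.5 and 14.3 in DMSO and 19.6, 15.8 and 17.8 CPM in DMSO+FGF2. The groups did not overlap, though their closest libraries both round to 15.8 CPM. At 0.29 ± 0.10 (adjusted p = 0.0854) Dnajb9 did not pass. It passed without the 3 libraries that lay apart, at 0.37 with an adjusted p of 0.0121, and without BGJ398+FGF2 2 alone, at an adjusted p of 0.049. Dnajc10 (ERdj5), a reductase, ranged from a lowest value of 208 CPM to 238 CPM over all 12 libraries, with 0.07 ± 0.05 (adjusted p = 0.392).

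In the lectin cycle, which holds glycoproteins until they fold, only Calr of the 3 genes passed the test for FGF2 in DMSO. Calr measured 1022, 966 and 986 in DMSO and 1645, 1692 and 1458 CPM in DMSO+FGF2. Under BGJ398 it measured 1126, 1097 and 1080.1 CPM, and with FGF2 added 1089.7, 1280.0 and 1037 CPM. The DMSO+FGF2 libraries were the highest 3 of the 12, with a log2 fold change of 0.69 ± 0.08 (adjusted p = 4.78e-05). Its membrane-bound relative Canx moved little, 0.08 ± 0.05 (adjusted p = 0.367) in log2 units, and its libraries did not overlap between the groups although the change was small. Uggt1, which marks unfolded glycoproteins for another round, had -0.12 ± 0.06 (adjusted p = 0.203).

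Disulfide isomerases form and rearrange the disulfide bonds of secreted proteins. Pdia4 (ERp72) had the largest change of the 6 isomerases, from 212, 220.1 and 225 CPM in DMSO to 368, 381 and 361 CPM in DMSO+FGF2. Libraries with the inhibitor read 221, 227 and 229 CPM and, with FGF2, 225, 241 and 222 CPM. The groups were far apart for their spread, with a log2 fold change of 0.76 ± 0.05 (adjusted p = 4.58e-07). Pdia3 (ERp57), which works with Calr and Canx, went from 614, 601 and 617 CPM to 853, 857 and 755 CPM, and read 651, 645 and 661 CPM and 669, 758 and 624 CPM under BGJ398. P4hb, protein disulfide isomerase and also a subunit of collagen prolyl 4-hydroxylase, went from 1720.3, 1779.8 and 1734 CPM to 2129, 2319 and 2135 CPM, and read 1797, 1639 and 1629 CPM and 1677, 1894 and 1718 CPM. For Pdia3, the 758 CPM of BGJ398+FGF2 2 was above the lowest DMSO+FGF2 library, while for P4hb no library of another group reached DMSO+FGF2. Their log2 fold changes were 0.43 ± 0.07 (adjusted p = 0.000992) and 0.33 ± 0.06 (adjusted p = 0.00248).

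Pdia6 had the largest SE of the 37, with values from 18.5 to 50.1 CPM over the 12 libraries, and at 0.35 ± 0.24 (adjusted p = 0.39) it did not pass in the model of all 12 libraries. In a fit of only these 2 groups it passed, at 0.35 with an adjusted p of 0.019. Transcripts with no match in the gene annotation held 0.499 to 0.641% of reads, were assigned to no gene and may include forms of listed genes. Txndc5 was lower in the DMSO+FGF2 libraries than in the other 9 but by little, at -0.09 ± 0.05 (adjusted p = 0.33), and the proline isomerase Ppib had 0.04 ± 0.09 (adjusted p = 0.831). Ppib shares 37.0% of its 31-base words with other genes, mainly Snx22, and Sec61b shares 23.5%, mainly with Gm10320, so their counts depend on how reads were divided. Smaller shares were found for Hsp90b1 (12.3%), Dnajb9 (10.8%) and Txndc5 (10.1%).

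None of the 6 translocation, glycosylation and export genes passed the test for FGF2 in DMSO, where all 6 log2 fold changes were below 0, from -0.13 to -0.04. With unadjusted p-values 1 of the 6, Stt3a, was under 0.05. Sec61a1 and Sec61b, which form the channel, were at -0.05 ± 0.05 and -0.04 ± 0.10. Ssr1, part of the translocon-associated complex, was at -0.09 ± 0.05, the oligosaccharyltransferase genes Ostc and Stt3a at -0.11 ± 0.08 and -0.13 ± 0.05, and the COPII cargo adaptor Sec24d at -0.09 ± 0.06. The 3 DMSO+FGF2 libraries lay below all 3 DMSO libraries for 4 of them (Ssr1, Ostc, Stt3a and Sec24d). Of all genes, 18.4% separated in this way. Without the 3 libraries that lay apart, Ostc at -0.14 (adjusted p = 0.023) and Stt3a at -0.13 (adjusted p = 0.0407) passed as lower.

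In ERAD, 4 of the 7 tested genes rose, where 7.57% of all genes were called higher. DMSO and DMSO+FGF2 libraries separated upward for 5 of the 7, against 19.2% of all genes. A further ERAD list, given below, had 1 of 14 genes called higher. Herpud1, a membrane scaffold of the degradation complex, measured 147, 124 and 119.6 in DMSO, 165, 188 and 180.2 CPM in DMSO+FGF2, 133, 118 and 128 in BGJ398 and 128, 154 and 122 CPM in BGJ398+FGF2. Syvn1 (Hrd1), its ubiquitin ligase, measured 87.4, 78.7 and 86.9 CPM, 103, 112 and 116 CPM, 84.8, 82.7 and 84.9 CPM and 82, 84.2 and 88.8 CPM in the same order. For both genes every DMSO+FGF2 library was above all 9 others, at 0.45 ± 0.09 (adjusted p = 0.00578) and 0.39 ± 0.06 (adjusted p = 0.000699). Sel1l, the adaptor of Syvn1, measured 168, 166 and 165 CPM, 207, 204 and 215 CPM, 153, 166 and 167 CPM and 164, 133 and 167 CPM. Edem2, which trims mannose from misfolded glycoproteins, measured 30.1, 32.7 and 33.3 CPM, 42.8, 39.7 and 41.4 CPM, 34.2, 34.2 and 30.8 CPM and 37.2, 34.1 and 32.1 CPM. The same separation held for Sel1l and Edem2, at 0.33 ± 0.07 (adjusted p = 0.01) and 0.37 ± 0.07 (adjusted p = 0.00427), and BGJ398+FGF2 2 was the lowest Sel1l library. Edem1, Derl1 and Derl2 did not pass, at -0.01 ± 0.07, 0.11 ± 0.06 and 0.05 ± 0.05.

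Of the sensors and their partners, none was called higher for FGF2 in DMSO. Xbp1, whose mRNA Ern1 splices, measured 58.9, 49.4 and 53.4 in DMSO, 62.6, 64.7 and 64 CPM in DMSO+FGF2, 59, 60 and 57.5 in BGJ398 and 58.4, 67.9 and 53.6 CPM in BGJ398+FGF2. Its FGF2 and DMSO libraries did not overlap, at 0.24 ± 0.08 (adjusted p = 0.0675). Ern1 measured 69.1, 72.4 and 74.2 CPM, 88.2, 82.6 and 95 CPM, 61.3, 71.2 and 71.2 CPM and 67.7, 47.1 and 72.3 CPM, at 0.30 ± 0.12 (adjusted p = 0.125). The 47.1 CPM of BGJ398+FGF2 2 was the lowest Ern1 value, and without that library Ern1 and Xbp1 both passed as higher, at adjusted p-values of 0.0068 and 0.016. Both also passed without the 3 libraries that lay apart (0.34 and 0.23, adjusted p = 0.000152 and 0.0245) and in a fit of only the 2 groups (adjusted p = 0.00395 and 0.0209). Xbp1 passed in addition with DESeq2 (adjusted p = 0.038) and without DMSO 1 or BGJ398+FGF2 3 (0.0459 and 0.043). Whether either gene passed thus depended on the setting.

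Atf6 measured 139, 141 and 139.8 in DMSO, 149, 138 and 146 CPM in DMSO+FGF2, 130.4, 137 and 137 in BGJ398 and 130.4, 116 and 144 CPM in BGJ398+FGF2. Eif2ak3, the kinase that slows translation, measured 51.7, 52 and 53.2 CPM, 53.4, 46.7 and 48.7 CPM, 49.8, 52.9 and 52.9 CPM and 55, 44 and 50.4 CPM. Neither separated by FGF2 in DMSO, at 0.04 ± 0.07 (adjusted p = 0.745) and -0.08 ± 0.08 (adjusted p = 0.59). Mbtps1, the Golgi protease that cleaves Atf6, was the 1 member called lower, measuring 496, 517 and 509 CPM, 457, 442 and 441 CPM, 510.4, 510.3 and 526 CPM and 504, 495 and 501 CPM. Its DMSO+FGF2 libraries were the lowest 3 of the 12, at -0.18 ± 0.04 (adjusted p = 0.0126), but the call was lost on leaving out DMSO 2, DMSO 3 or DMSO+FGF2 3 (adjusted p = 0.0666, 0.0522 and 0.0519).

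Ern1 activity is usually read from the spliced form of Xbp1 mRNA, but none of the 4 Xbp1 transcripts in the tables is annotated as that form, so splicing was not analysed here. The main transcript, Xbp1-201, held 93.6 ± 1.06% of Xbp1 reads in DMSO and 93.9 ± 1.0% in DMSO+FGF2 (SD, n = 3; exact permutation test, 2-sided, p = 0.5). The share was 95.3 ± 1.65% in BGJ398 and 94.5 ± 1.31% in BGJ398+FGF2 (exact permutation test, 2-sided, p = 0.6). With 3 libraries against 3 the smallest p possible is 0.1.

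**Figure D2:**
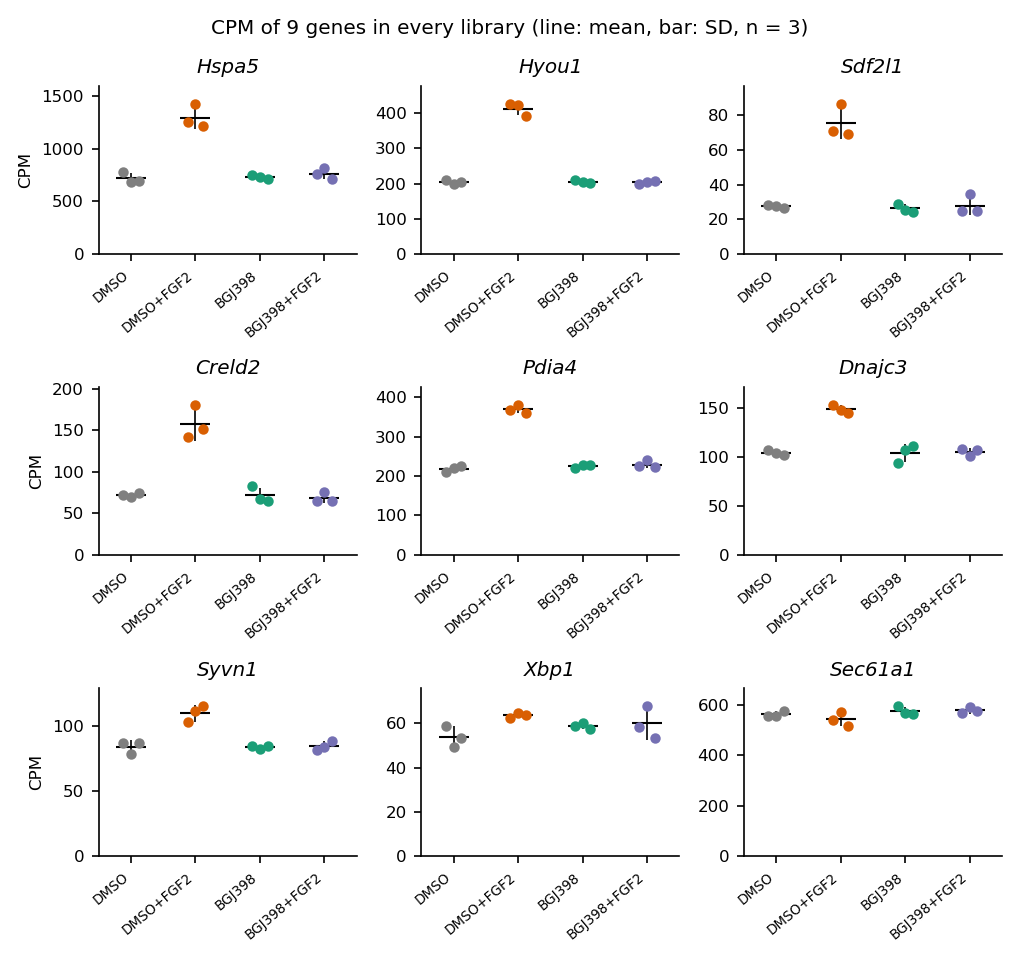
Points are CPM in each of the 12 libraries for 9 genes, with the mean as a line and the SD as a bar (n = 3), and every axis starts at 0. DMSO+FGF2 lies above the other 3 groups for Hspa5, Hyou1, Sdf2l1, Creld2, Pdia4, Dnajc3 and Syvn1, whereas Xbp1 and the channel gene Sec61a1 overlap with libraries of another group.

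Under BGJ398 the FGF2 change was not seen at a size the test could call. FGF2 under BGJ398 gave 0 of 37 calls (0.0% of all genes were called), with a median log2 fold change of 0.02 and a range of -0.12 to 0.11. Libraries of the 2 groups did not overlap for 2 genes in the higher direction (Derl2 and Dnajc10) and 1 in the lower (Mbtps1), against 3.44% and 2.88% of all genes. None of the 37 had an unadjusted p under 0.05 by edgeR, against 2.59% of all genes, and DESeq2 and limma-voom also called 0 of the 37, while over all genes DESeq2 called 5 and limma-voom 0. For the genes with the largest changes in DMSO, the values under BGJ398 were 0.09 ± 0.13 for Sdf2l1, -0.07 ± 0.10 for Creld2, -0.01 ± 0.05 for Hyou1, -0.00 ± 0.10 for Manf and 0.07 ± 0.07 for Hspa5. Summed over the 38 genes the level was 7806 ± 103 TPM in BGJ398 and 7777 ± 78.5 in BGJ398+FGF2.

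BGJ398 on its own, compared with DMSO without FGF2, also called 0 of 37, where 0.327% of all genes were called. That background of 41 genes was itself unstable, at 9 genes without DMSO 2 or DMSO 3, 104 without BGJ398+FGF2 2 and 730 without the 3 libraries that lay apart, and the listed genes had 0 calls in each of these. The range of the log2 fold changes was -0.14 (Edem1) to 0.15 (Calr), with a median of 0.02, and none of the 37 had an unadjusted p under 0.05 by edgeR, against 8.27% of all genes. Libraries did not overlap for 2 genes in the higher direction (Calr and Pdia3) and 3 in the lower (Edem1, Derl2 and Atf6), against 9.11% and 8.08% of all genes. DESeq2 and limma-voom each called 0 of the 37, and 150 and 42 of all genes. Calr libraries, at 1126, 1097 and 1080.1 CPM, were all above the DMSO libraries, but the change of 0.15 ± 0.08 had an adjusted p of 0.648.

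When FGF2 was present in both groups, BGJ398 lowered 17 of the 37 genes and raised 3, with 22.2% of all genes called (11.4% lower and 10.8% higher). This comparison shares its DMSO+FGF2 libraries with the first, so its direction is not separate evidence. The 17 were Ern1 and the 16 genes that FGF2 raised in DMSO, and the log2 fold changes ran from -1.44 ± 0.12 (adjusted p = 3.89e-06) for Sdf2l1 to -0.26 ± 0.07 for Edem2 and Pdia3, whose libraries overlapped for Pdia3. Those calls of Edem2 and Pdia3 held in 17 of 22 settings each. Edem2 lost its call without DMSO+FGF2 1, DMSO+FGF2 3 or BGJ398+FGF2 3 (adjusted p up to 0.0795), and Pdia3 without DMSO+FGF2 1, DMSO+FGF2 2, BGJ398+FGF2 1 or BGJ398+FGF2 3 (adjusted p = 0.0558 to 0.0655). Ern1 was at -0.50 ± 0.12 (adjusted p = 0.00973), and was not called with counts rebuilt from TPM (-0.45, adjusted p = 0.0768). The 3 genes that were higher were Stt3a at 0.26 ± 0.05, Ssr1 at 0.18 ± 0.05 and Mbtps1 at 0.16 ± 0.04. With counts rebuilt from TPM, Stt3a and Ssr1 were at 0.10 and not called (adjusted p = 0.701 and 0.347). Mbtps1 lost its call under 5 settings, among them leaving out DMSO+FGF2 2, DMSO+FGF2 3 or BGJ398+FGF2 1 (adjusted p = 0.0511, 0.0624 and 0.0544), and Ssr1 without DMSO+FGF2 3 or BGJ398+FGF2 1 (0.0614 and 0.0515). Calls were gained as well: without BGJ398+FGF2 2 Pdia6 went from -0.52 to -0.90 (adjusted p = 0.00336) and Sec24d to 0.21 (adjusted p = 0.00698), and without all 3 libraries that lay apart they stood at -0.98 and 0.21 (adjusted p = 0.00142 and 0.00218). Atf6 passed as lower without BGJ398+FGF2 3, at -0.22 (adjusted p = 0.022). Counts rebuilt from TPM added Canx as lower (-0.26, adjusted p = 0.0125). They also added Txndc5 and Sec24d as higher (0.18 and 0.17, adjusted p = 0.0359 and 0.0358). Txndc5 passed with DESeq2 too (adjusted p = 0.0499), and Pdia6 with no filter on low counts (adjusted p = 0.032).

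Whether the FGF2 change differed between vehicle and inhibitor was tested directly as an interaction, in which the change with FGF2 in vehicle was subtracted from the change with FGF2 under the inhibitor. It was negative for 10 of the 37 and positive for 0, where 4.24% of all genes were called, 2.25% negative and 1.99% positive. Of the 10, 7 were Hsp70 and Hsp90 chaperones and partners, led by Sdf2l1 at -1.37 ± 0.18 (adjusted p = 0.000558), Creld2 at -1.19 ± 0.14 (adjusted p = 0.00036) and Hyou1 at -1.02 ± 0.07 (adjusted p = 2.33e-06). The others were Calr at -0.64 ± 0.11 (adjusted p = 0.00348), Pdia4 at -0.73 ± 0.07 (adjusted p = 4.65e-05) and Syvn1 at -0.37 ± 0.08 (adjusted p = 0.0243). Of the 16 genes raised in DMSO, Dnajb11, Pdia3, P4hb, Herpud1, Edem2 and Sel1l did not pass, with values between -0.39 and -0.27 and adjusted p-values of 0.0558 to 0.163. Without BGJ398+FGF2 2 these genes other than Edem2 passed too, 15 in all, and without the 3 libraries that lay apart Ern1 and Pdia6 joined them, 17 in all. Over all genes the negative calls rose as well, from 282 to 503 and 538. Leaving out DMSO+FGF2 3 brought in Dnajb11 and Pdia3, and leaving out BGJ398+FGF2 3 brought in Sel1l. Syvn1 lost its call with counts rebuilt from TPM and without DMSO 2, BGJ398 3, DMSO+FGF2 2, DMSO+FGF2 3 or BGJ398+FGF2 1, with adjusted p-values up to 0.0767.

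**Figure D3:**
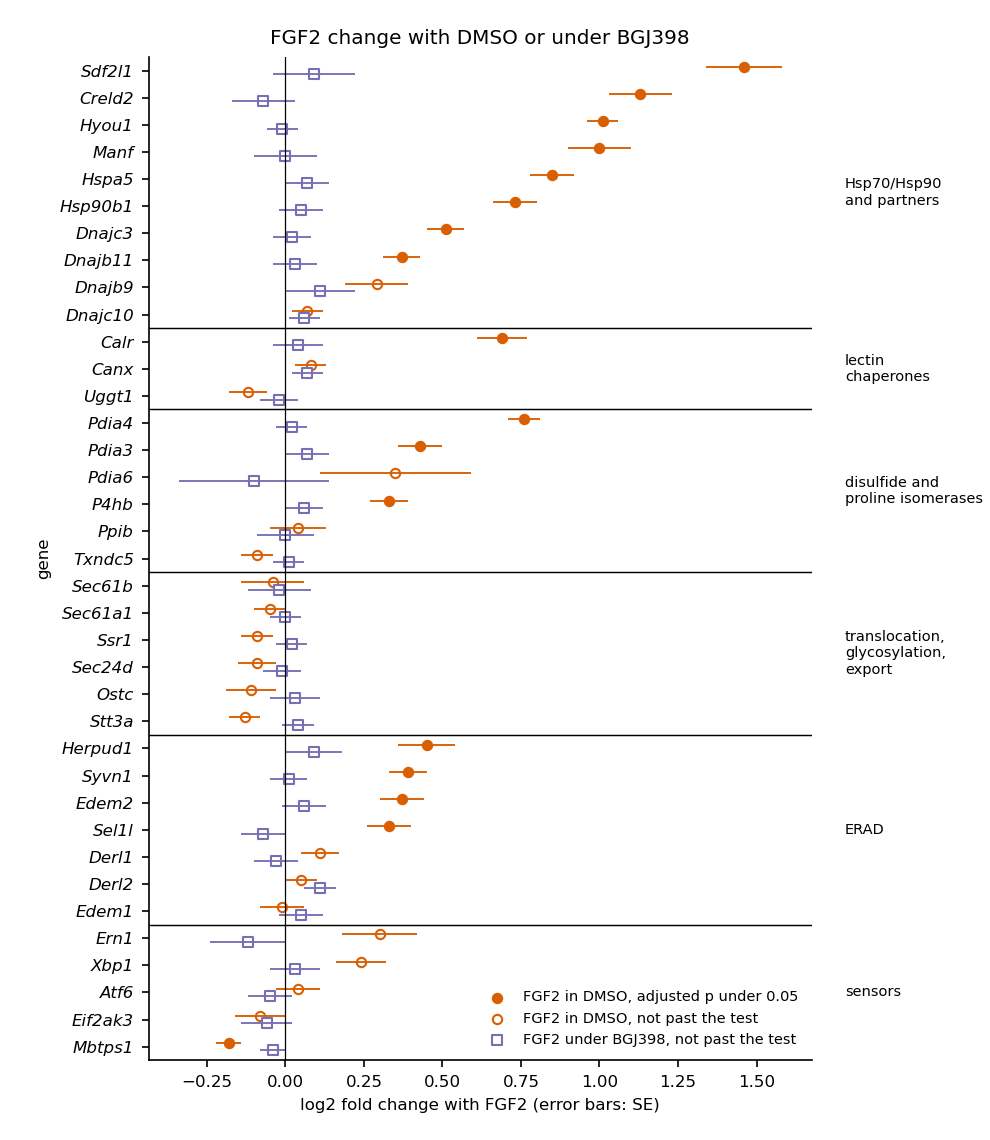
Log2 fold changes with FGF2, with SE, are drawn for the 37 tested genes by role, in DMSO (orange circles) and under BGJ398 (purple squares), filled where the adjusted p was under 0.05. Orange points spread from -0.18 to 1.46, while purple points lie between -0.12 and 0.11 with none filled.

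The genes with an ERSE were then set beside the expression changes. These counts are descriptions without a test, since the genes were listed with earlier results known. Of the 8 tested members with an ERSE, 6 were higher with FGF2 in DMSO (Creld2, Hspa5, Hsp90b1, Calr, Dnajc3 and Syvn1) and 2, Canx and Pdia6, were not called. Of 23 tested members with a window and no ERSE, 8 were higher and 1 lower, and over all 9560 tested genes with a window 7.49% were higher. Both genes with an ERSE-II, Herpud1 and Dnajb11, were higher, the match in Dnajb11 lying just after the annotated start. Raised genes without either motif in their window included Sdf2l1, Pdia4, Pdia3, P4hb, Sel1l and Edem2, and no match says only that these letters are not in that stretch. Hyou1 and Manf had no window.

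Outside the list, 8 other tested mouse genes held an ERSE, of which 1, Zfp57, was higher with FGF2 in DMSO (0.48 ± 0.11, adjusted p = 0.0127). Creld2 shares its ERSE with Alg12, a glycosylation gene that starts 328 bases away on the other strand, and Alg12 had 0.35 ± 0.11 (adjusted p = 0.0621). Zfp57 and Alg12 were named after their values were seen. Another motif, the unfolded protein response element (UPRE), was found in 0.714% of mouse genes with a window and in 2 of the 32 members, Txndc5 and Sec24d, neither of which was called for FGF2 in DMSO.

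**Figure D4:**
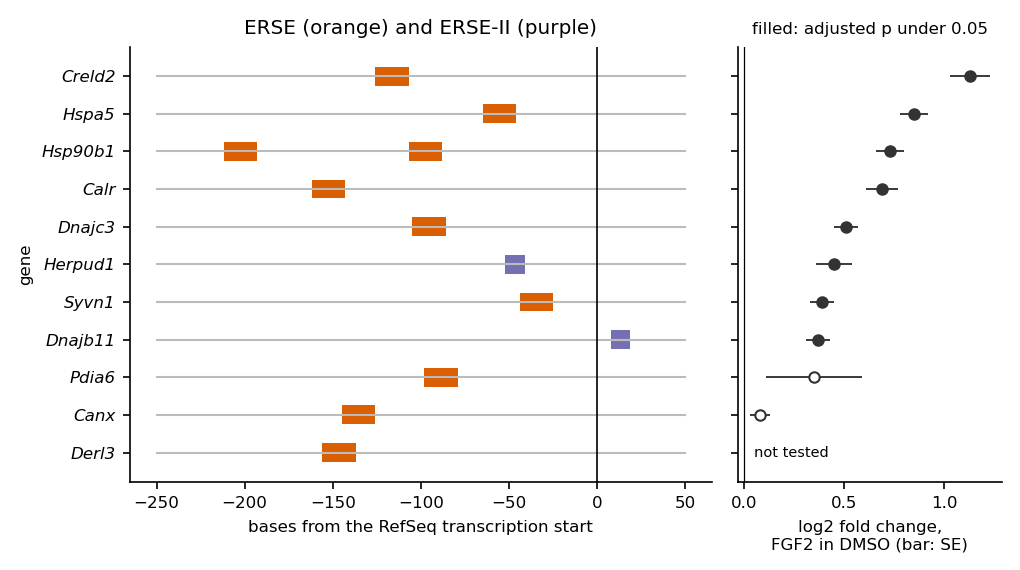
The left panel draws each ERSE (orange, 19 bases) and ERSE-II (purple, 11 bases) in bases from the RefSeq start, within windows of 250 bases before to 50 after, and the right panel gives the log2 fold change for FGF2 in DMSO with its SE. Filled points, all but Pdia6 and Canx among the tested genes, had an adjusted p under 0.05, and Derl3 was not tested.

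Other genes of the same pathways were read from further lists. In an additional ERAD list 1 of 14 genes rose with FGF2 in DMSO, H13 (signal peptide peptidase), from 138 to 182.5 CPM (0.40 ± 0.06), and none fell, with a list median of 0.05. Of 20 further translocon, signal peptidase and oligosaccharyltransferase genes 1 rose, Spcs3 at 0.28 ± 0.06, with a median of 0.01. COPII export and retrieval gave 1 higher, Sec24c at 0.19 ± 0.04, and 2 lower, Lman1 at -0.21 ± 0.06 and Sec23a at -0.26 ± 0.07, of 18 genes, with a median of -0.05. Each of these 3 lists thus had 1 gene called higher, where 7.57% of all genes were. DMSO and DMSO+FGF2 libraries did not overlap for 6 of the 14 ERAD genes in the higher direction and 3 in the lower. These counts were 5 and 5 for the 20 translocon and related genes, and 1 and 8 for the 18 COPII genes. Of all genes, 19.2% and 18.4% separated.

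Among 13 ER redox enzymes, 4 rose and 1 fell, where 7.57% of all genes were called higher and 5.82% lower. Ero1l and Ero1lb (Ero1a and Ero1b), which oxidise the protein disulfide isomerases, had log2 fold changes of 0.72 ± 0.07 and 0.63 ± 0.10, and Qsox1, a sulfhydryl oxidase, 0.58 ± 0.06. Ero1l went from a mean of 99.4 CPM to 164 CPM, and Qsox1 from 314 CPM to 469.8 CPM. Both had a negative interaction, at -0.51 ± 0.11 and -0.55 ± 0.09 (adjusted p = 0.013 and 0.0023). Txndc11 rose by 0.21 ± 0.06, and Pdia5, named after its value was seen, fell by 0.24 (adjusted p = 0.04997).

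Among 18 further ER chaperones tested, 7 fell and none rose, with a median of -0.18. Of all genes, 5.82% were called lower and 7.57% higher. The 4 named by the smallest p were Serpinh1, the collagen-specific chaperone Hsp47, and the proline isomerases Fkbp9, Fkbp10 and Fkbp14, of which Fkbp10 acts on procollagen. Serpinh1 went from a mean of 1546 CPM in DMSO to 1131 CPM in DMSO+FGF2 (-0.45 ± 0.08), and stood at 1554 in BGJ398 and 1568 CPM in BGJ398+FGF2. Fkbp9 went from 574 to 422 CPM (-0.44 ± 0.05), Fkbp10 from 309 to 223 CPM (-0.47 ± 0.06) and Fkbp14 from 44.8 to 32.2 CPM (-0.48 ± 0.07). All 4 had a positive interaction, from 0.44 ± 0.10 for Fkbp14 to 0.51 ± 0.07 for Fkbp9. Beside them, Col1a1 went from a mean of 9485 CPM in DMSO to 5912 CPM in DMSO+FGF2. The other 3 that fell, named after their values were seen, were Fkbp7 at -0.55, Hspa13 at -0.26 and Ganab at -0.20.

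In the PERK branch and its Atf4 targets, 3 of 12 genes rose and 3 fell, against 7.57% and 5.82% of all genes. The list median was -0.12. The rises were Ppp1r15a, which reverses the translation block, at 0.40 ± 0.09, the stress factor Nupr1 at 0.39 ± 0.10, and Atf3 at 0.57 (adjusted p = 0.022). The falls were Asns, asparagine synthetase, at -0.50 ± 0.07, Atf5 at -0.38 ± 0.08, and Psat1, of serine synthesis, at -0.24 (adjusted p = 0.0346). Ddit3 (CHOP), the death-linked factor of this branch, was at 0.43 with an adjusted p of 0.0568. Atf3 and Psat1 were named after their values were seen.

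Of 10 tested further transducers of ER stress, 1 rose, Yy1 at 0.17 ± 0.05, and none fell. Outside the ER, 1 of 15 tested cytosolic and mitochondrial heat shock genes rose, Dnajb1 from 113 to 134 CPM (0.25 ± 0.06), with a median of 0.11 over the list, and none fell. For 1 called gene in lists of this size the share is near the 7.57% of all genes called higher. DMSO and DMSO+FGF2 libraries did not overlap for 8 of the 15 heat shock genes in the higher direction and 2 in the lower. For the 10 transducers these counts were 1 and 2. Of all genes, 19.2% and 18.4% separated. Under BGJ398 no gene of any of these 8 lists was called with FGF2 by edgeR. The shares of these lists are descriptions, and no list was tested against the others.

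**Figure D5:**
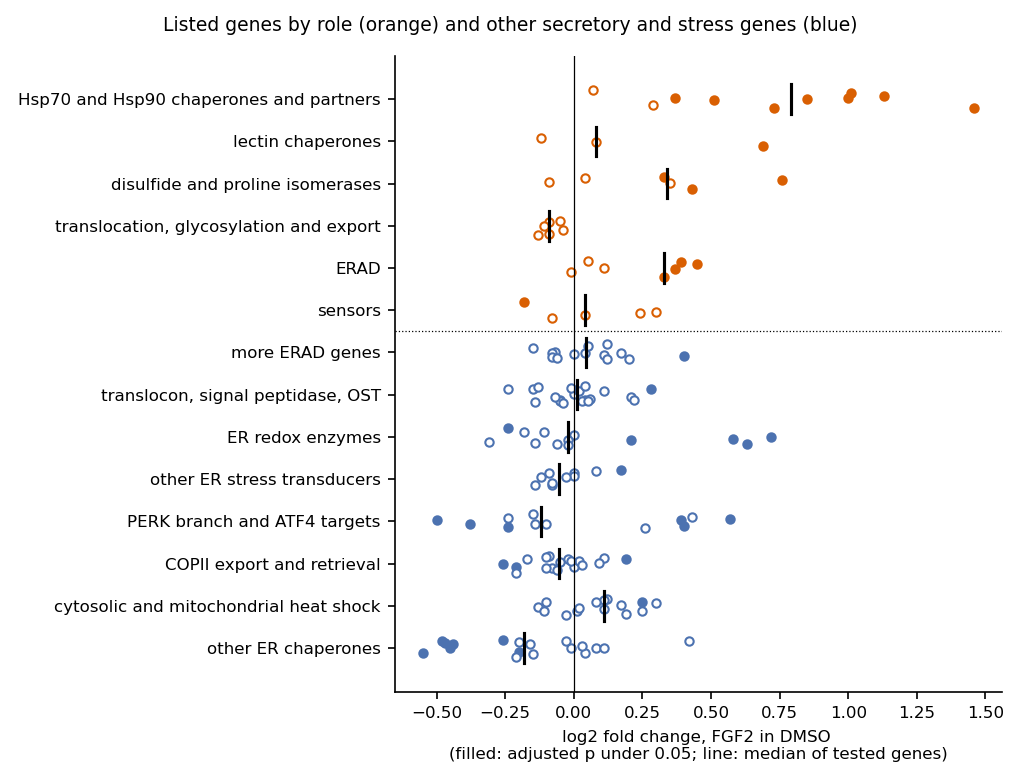
Each point is 1 tested gene, placed by its log2 fold change for FGF2 in DMSO, for the 6 groups of listed genes (orange) and 8 further lists (blue), with the median as a line and filled points past an adjusted p of 0.05. The Hsp70 and Hsp90 group has a median of 0.79 and 8 filled points to the right, and the other ER chaperones a median of -0.18 and 7 filled points to the left.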

How the data were processed

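RNA of 12 Ocy454 libraries, 3 in each of 4 groups, was quantified per transcript. Per the submitters' processing notes the authors used Salmon (version not given there) and the mouse build GRCm39, and neither trimming nor strandedness is given in the sources used here. Whether reads of genes that overlap on opposite strands were separated is thus not known. The files as deposited by the authors hold, per the file headers, Salmon's estimated counts, TPM and the effective length in bases of each transcript. Transcript names matched the GENCODE M21 annotation for 114656 of 116178 transcripts, and the 1522 without a match held 0.499 to 0.641% of reads and were left out.

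The estimated counts were added up by gene and rounded to whole numbers. The main test was edgeR 4.0.16 (R 4.3.3, limma 3.58.1): TMM scaling, filterByExpr, and quasi-likelihood tests in a single model with a mean for each of the 4 groups (12 libraries, 8 residual degrees of freedom, biological coefficient of variation 8.49%). All adjusted p-values are Benjamini-Hochberg over 12542 genes with a threshold of 0.05, and unless another tool is named they are edgeR's. CPM are counts divided by the TMM-scaled library size, and errors of log2 fold changes are SE. Levels are compared between genes as TPM. The steps were tested on simulated data with the same dispersion for every gene and no libraries deviating together. That run thus does not cover the effect of the 3 libraries that lay apart. Sequence searches and plots used Python 3.11.15 with SciPy 1.17.1. Motifs were searched as letters in RefSeq promoter windows.

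Alternatives were 2 other scalings (RLE, upper quartile), DESeq2 1.42.0, limma-voom, no filter on low counts, a filter of 50 reads in 3 libraries, counts rebuilt from length-scaled TPM, a replicate block, fits of only the 2 groups compared and leaving out each library. Leaving out 3 libraries together was chosen after seeing the data.

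The genes, the lists and the tests were chosen with earlier results of these data known. Listed genes called for FGF2 in DMSO or in the interaction, and the sensors, are given in every library, the others by range or fold change. Of each further list up to 4 called genes with the smallest p are named.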

Additional observations from a re-analysis of the deposited data

Results flagged for a closer look

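For 10 genes the FGF2 change under BGJ398 differed from that in DMSO by a direct test, the interaction in edgeR's quasi-likelihood model with adjusted p under 0.05. In log2 units the differences were -1.37 for Sdf2l1, -1.19 for Creld2, -1.02 for Hyou1, -1.0 for Manf, -0.79 for Hspa5, -0.73 for Pdia4, -0.67 for Hsp90b1, -0.64 for Calr, -0.50 for Dnajc3 and -0.37 for Syvn1. In all 10 the value in DMSO was a rise and the value under BGJ398 lay between -0.07 and 0.09. Groups of 3 libraries are too small to test within a group whether a single library is outlying. Leaving out each library in turn kept these calls, apart from that of Syvn1, which held in 15 of 21 settings.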

How the results depend on the processing

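Over 22 settings the 16 genes called higher for FGF2 in DMSO were each called in every one, and Mbtps1 in 19. No log2 fold change of a called gene reversed. Counts of called listed genes stayed within 1.5 times the count reported, apart from the interaction without BGJ398 1, DMSO+FGF2 2 and BGJ398+FGF2 2, which had 17 against 10. Leaving out 1 library gave 16 to 20 calls for FGF2 in DMSO, 17 to 22 for BGJ398 with FGF2, 9 to 15 for the interaction and 0 for the other comparisons. Fits of only the 2 groups gave 20 calls for FGF2 in DMSO and 16 for BGJ398 with FGF2, and DESeq2 14 for the interaction. Calls over all genes moved more: across the settings from 1680 to between 1018 (without DMSO 3) and 2611 (without the 3 libraries) for FGF2 in DMSO, from 41 to between 9 and 730 for BGJ398 without FGF2, from 2782 to between 1794 (only the 2 groups) and 3691 for BGJ398 with FGF2, and from 532 to between 328 (without DMSO 2) and 1038 for the interaction. FGF2 under BGJ398 had 0 to 6. Some ratios of summed levels moved by more than 1 SD of the TPM ratio when CPM replaced TPM: under BGJ398 FGF2 gave 1.02 for all listed genes (0.996 with TPM), 1.03 for the Hsp70 and Hsp90 group (0.991) and 1.03 for lectin chaperones (0.983), and in DMSO 1.24 for isomerases (1.15) and 0.944 for translocation, glycosylation and export (0.887). The shifts under BGJ398 were smaller than the spread of the CPM sums themselves, whose SD in BGJ398+FGF2 was 491 on a mean of 10999 for all listed genes. The cause was not tested.

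The replicate numbers did not pair the libraries: same-numbered libraries deviated together with correlations of -0.146 to 0.239, over 0.1 in 2 of 18 pairs. With the replicate block the counts were 17, 0, 0, 20 and 10 in the order of the report.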
